A study of Homo sapiens with 7 samples.

Results

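The genes of the integrated stress response, with the targets of its transcription factors ATF4 and CHOP, were followed in PC3 TRIPZ-MITFA cells. The set holds 44 genes chosen by name, and all probes that carry one of these names in the platform annotation were taken. In all, 39 of the 44 genes had a probe (48 probes), among 11389 genes with a tested probe of a single gene name. No probe is named for CHAC1, ALDH1L2, GPT2, CARS (now CARS1) or FGF21 in this annotation. The annotation covers only the tested probes, and 4275 of these carry no gene name. Whether the arrays hold unnamed or undetected probes of these genes could not be looked up. The other tRNA synthetases are also given by their current symbols (AARS1 for AARS and so on). The genes fall into 5 branches, namely regulators (11 of 12 genes with a probe), amino acid synthesis (10 of 12), amino acid transport (7 of 7), tRNA charging (7 of 8) and secreted and other targets (4 of 5).

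PC3 is an established human prostate cancer line that was derived from metastatic bone tissue. The cells carry a lentiviral TRIPZ cassette that expresses HA-Flag-tagged MITFA, the A isoform of the transcription factor MITF, when doxycycline is given. Expression was profiled on Illumina HumanHT-12 v4 BeadChips in doxycycline-treated cells (Dox, 4 arrays, replicates 1 to 4) and in the same cells without doxycycline (No dox, 3 arrays, replicates 2 to 4). The comparison asks which transcripts differ upon MITFA induction. Both groups carry the cassette in the same transduced line, and no array of doxycycline-treated cells without it was analysed here, and any difference may belong to doxycycline or to MITFA, which cannot be told apart. The sources used here name no dose or time for the arrays. None says that the arrays came from separate cultures, so the spread behind the p-values is that of arrays and may be technical.

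The integrated stress response begins with kinases that phosphorylate the translation factor eIF2 when amino acids run short, proteins misfold, heme is lacking or a virus infects the cell. Phosphorylated eIF2 lowers protein synthesis in general while the ATF4 message is translated more, and ATF4 then activates genes of amino acid synthesis, amino acid uptake and tRNA charging. ATF4 also induces CHOP, the product of DDIT3, and both induce feedback genes such as TRIB3 and PPP1R15A. The pathway is known for helping tumor cells through nutrient shortage and for driving cell death when it lasts.

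The platform detected between 15562 and 16618 probes on an array at a detection p-value under 0.01, and array correlations lay between 0.994 and 0.996. Of the 6 epithelial and PC3 markers examined, 5 had a probe (KRT8, KRT19, EPCAM, CD44 and VIM), and each was detected on all 7 arrays. Among markers of other cell types, no tested probe is named for PTPRC, CD3E or LUM, while PECAM1 was detected on all 7 arrays and COL1A1 on 1 No dox array only. The single tested MITF probe lay between 6.67 and 6.94 in Dox and between 6.69 and 6.89 in No dox on the log2 scale (log2 fold change −0.055, limma adjusted p = 0.900). Whether this probe reads the cassette is unknown, and the induction was not checked with it. The paper reports MITF induction by doxycycline in PC3 TRIPZ-MITFA cells, from quantitative PCR and western blot. It does not say that those were the samples put on the arrays.

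Promoter sequence at the annotated gene starts, from 250 bases before to 50 bases after, was taken from RefSeq (GRCh38.p14) for 36 of the 44 genes, all but NUPR1, PSPH, SHMT2, ALDH1L2, PYCR1, GPT2, SLC7A11 and EIF4EBP1. The binding element of ATF4 paired with a C/EBP factor was searched by its core, TGATGNAA, on both strands. The core stood in 10 of the 36 promoters (27.8%), while 3.67% of all 27305 promoters of the same length hold it. These 10 elements are shown because they carry the letters by which ATF4 targets are often recognized. Each is written 5′ to 3′ on the strand that reads the core, with the core in capitals and up to 11 bases on either side.
ATF3, chr1:212565205-212565234, plus strand: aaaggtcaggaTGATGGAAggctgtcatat
CHAC1, chr15:40953251-40953280, minus strand: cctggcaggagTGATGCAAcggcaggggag
ASNS, chr7:97872458-97872487, minus strand: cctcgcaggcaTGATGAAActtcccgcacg
SLC3A2, chr11:62881725-62881748, minus strand: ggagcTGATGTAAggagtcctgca
SLC7A1, chr13:29595663-29595692, minus strand: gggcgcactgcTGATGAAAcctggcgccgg
AARS1, chr16:70289675-70289704, plus strand: tctaacttggcTGATGCAActgcgagaaaa
CARS1, chr11:3057407-3057436, plus strand: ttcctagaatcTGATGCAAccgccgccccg
MARS1, chr12:57488053-57488082, minus strand: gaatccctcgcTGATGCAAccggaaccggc
NARS1, chr18:57621804-57621833, minus strand: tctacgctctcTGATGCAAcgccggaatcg
FGF21, chr19:48755459-48755488, minus strand: ctcctcctcccTGATGCAAtcctggtgttt
Counted from the gene start, the core begins at −191 in ATF3 and at −68 in ASNS. The longer element with a further base, TGATGNAAT, was found in FGF21 alone among the 36 (1.02% of all promoters), and it overlaps the core. The letters are a description of these windows and not a measured binding site. The window of each gene lies at its annotated start, and whether the measured transcript starts there was not examined.

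The cyclic AMP response element TGACGTCA, another motif that ATF family factors bind, was found in 1 of the 36 promoters, that of PPP1R15A (1.98% of all promoters). The E-box CACGTG, which MITF binds, was found in ALDH18A1, ATF4 and SLC7A5 (8.33% of the 36, against 7.43% of all promoters). The M-box core CATGTG was found in AARS1 and STC2 (5.56%, against 11.2% of all promoters). The 250 bases upstream of ATF3 and PPP1R15A are given in full because these regulators had the smallest p-values of their branch, with the ATF4 core in capitals in ATF3 and the cyclic AMP response element in capitals in PPP1R15A.
ATF3, chr1:212565157-212565406, plus strand: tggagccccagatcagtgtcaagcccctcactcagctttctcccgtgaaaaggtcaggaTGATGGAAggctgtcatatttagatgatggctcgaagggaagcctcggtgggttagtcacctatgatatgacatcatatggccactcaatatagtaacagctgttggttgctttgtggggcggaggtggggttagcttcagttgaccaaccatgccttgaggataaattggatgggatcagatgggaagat
PPP1R15A, chr19:48872171-48872420, plus strand: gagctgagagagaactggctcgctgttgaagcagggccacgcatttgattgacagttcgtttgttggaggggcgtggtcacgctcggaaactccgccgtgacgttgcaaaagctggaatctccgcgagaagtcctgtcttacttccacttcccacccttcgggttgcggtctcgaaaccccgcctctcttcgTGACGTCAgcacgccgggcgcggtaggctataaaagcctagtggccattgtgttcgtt
Neither E-box nor M-box letters were found in the windows of these genes. For ATF3 and PPP1R15A too, the start of the transcript that the probe reads was not examined.

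Across the 48 member probes, limma called 0 higher and 0 lower in Dox (adjusted p under 0.05), where 0.134% of all 19337 tested probes were called (26 higher and 0 lower). On the log2 values that the authors deposited, the same test called 2 member probes, those of ATF3 and TXNIP, both higher, where 0.522% of all probes were called (0.393% higher and 0.129% lower). At an unadjusted p under 0.05, 6 of the 48 probes passed, where 8.50% of all probes did, and all 6 were higher (ATF3, DDIT3, TRIB3, PPP1R15A, NUPR1 and TXNIP), where 4.49% of all probes were higher. With 1 probe to stand for each gene, namely that of highest mean signal over the 7 arrays, 5 of 39 genes were higher at that level and 0 lower, where 5.01% of all genes were higher and 3.46% lower. Of these 5 genes, 4 are regulators, and none belongs to amino acid synthesis, transport or tRNA charging. Other members passed this unadjusted level only under other settings. On the authors' values they were ASNS and STC2, both higher, and MARS1, lower, and without Dox 1 it was SLC7A11, higher. Without No dox 3, VLDLR also passed it, higher, though it was not detected in No dox.

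The 39 genes divided into 24 with a log2 fold change above 0 and 15 below it, where 51.9% of all genes lay above. Their median log2 fold change was 0.038, against 0.0051 over all genes. By branch the median was 0.085 for regulators, 0.022 for amino acid synthesis, 0.026 for transport, −0.027 for tRNA charging and 0.16 for secreted and other targets. VLDLR was not detected in No dox, and its No dox signal was also set to the lowest detected signal of each array. The medians were then 0.034 for all members and 0.10 for secreted and other targets. In 7 genes every Dox array was above every No dox array (ATF3, TRIB3, PPP1R15A, CEBPB, ASNS, SLC3A2 and TXNIP), as in 6.05% of all genes. In 1 gene, MARS1, every Dox array was below, as in 4.12% of all genes.

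**Figure D1:**
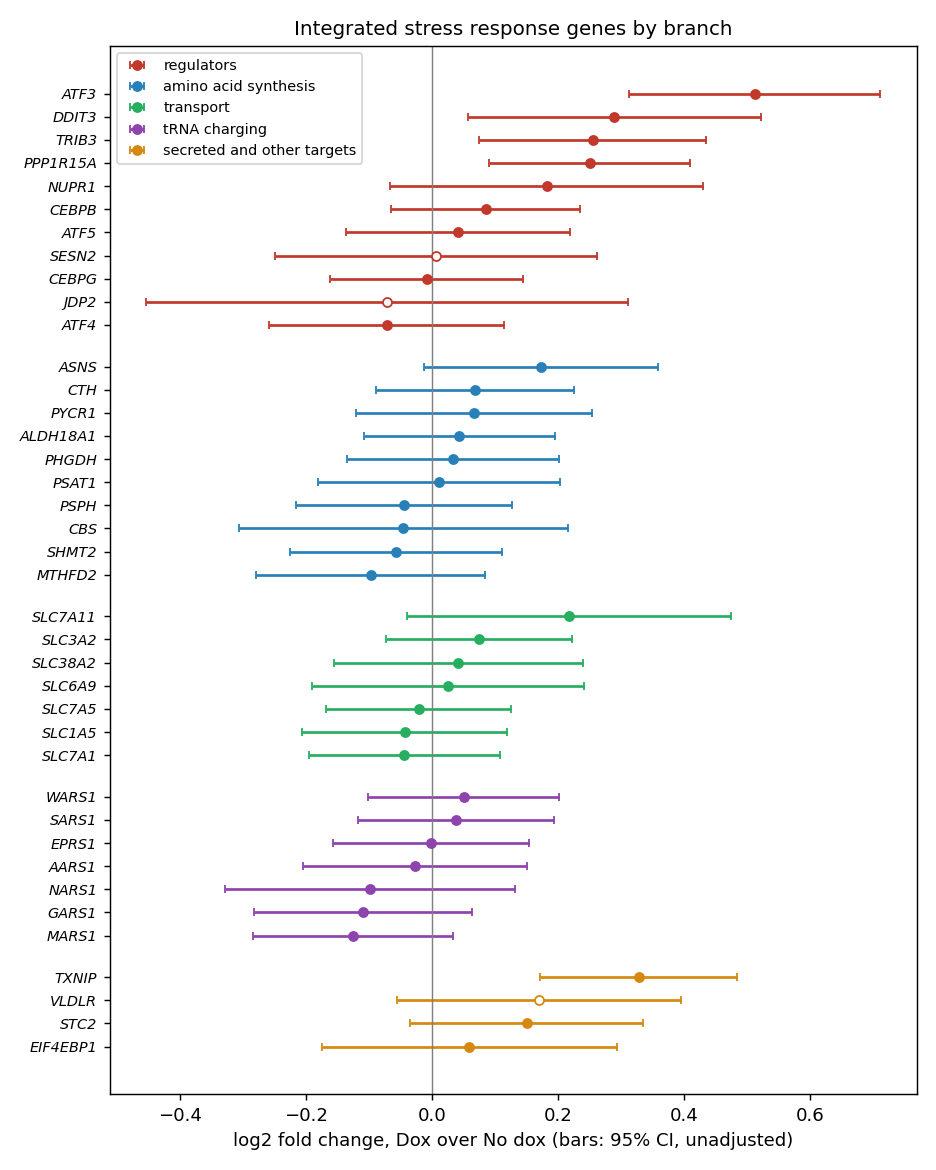
Log2 fold change, Dox over No dox, of the 39 genes with a probe (horizontal axis), listed by branch, 1 probe a gene. Bars are 95% confidence intervals without adjustment, and open circles mark genes not detected on all 7 arrays. VLDLR, not detected in No dox, stands at its fitted value, which is no measured fold. The intervals of ATF3, DDIT3, TRIB3, PPP1R15A and TXNIP lie above 0, while all intervals of amino acid synthesis, transport and tRNA charging reach 0.

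Of the regulators, ATF3, a stress-induced bZIP factor that can repress or activate its targets, showed the largest difference of all members. ATF3 had log2 signals of 6.56, 6.64, 6.65 and 6.58 in Dox, against 6.25, 5.90 and 6.14 in No dox. The groups did not overlap, with Dox above by 0.32 at the nearest arrays, and the Dox arrays were closer to one another than the No dox arrays were. The log2 fold change was 0.51 (95% interval 0.31 to 0.71), which is 1.43-fold, with a limma adjusted p of 0.119. On the authors' values ATF3 rose by 0.28 on the log2 scale (limma adjusted p = 0.0104). ATF3 was called under 5 of 17 alternative settings. With background correction by neqc kept, an intensity trend in the variance model gave a limma adjusted p of 0.00247. Testing only probes detected on every array of a group gave a limma adjusted p of 0.0416. The call thus depends on the settings, and the cause was not tested. In these bulk samples, more cells with ATF3 transcript and more transcript per cell cannot be told apart. In the fit with background correction, 34 of the 19337 probes had a larger fold change.

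PPP1R15A (GADD34) directs a phosphatase to phosphorylated eIF2 and so closes the response. Its log2 signals were 8.56, 8.43, 8.56 and 8.60 in Dox, against 8.25, 8.27 and 8.33 in No dox. The groups did not overlap, with Dox above by 0.097 at the nearest arrays. PPP1R15A thus had a log2 fold change of 0.25 (95% interval 0.091 to 0.41; limma adjusted p = 0.378). TRIB3, a pseudokinase that restrains ATF4 and CHOP, had 8.49, 8.63, 8.69 and 8.66 in Dox, against 8.46, 8.37 and 8.26 in No dox. Dox again lay above No dox throughout, though Dox 1 and No dox 2 were only 0.028 apart. For TRIB3 the log2 fold change was 0.26 (95% interval 0.076 to 0.44; limma adjusted p = 0.458).

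DDIT3, which encodes CHOP, had log2 signals of 7.31, 7.37, 7.58 and 7.41 in Dox, against 7.03, 7.0 and 7.35 in No dox. The groups overlapped, since No dox 4 lay above Dox 1, while the other No dox arrays lay below all Dox arrays. For DDIT3 the log2 fold change was 0.29 (95% interval 0.057 to 0.52; limma adjusted p = 0.512). NUPR1, a small stress-induced chromatin protein, was read by 2 probes. On the first (ILMN_1810560) NUPR1 had 6.46, 6.36, 6.47 and 6.18 in Dox, against 6.18, 6.07 and 6.19 in No dox, and Dox 4 lay among the No dox arrays. This probe gave NUPR1 a log2 fold change of 0.22 (95% interval 0.022 to 0.41; limma adjusted p = 0.555). On the other (ILMN_2404688) NUPR1 had 6.95, 7.19, 6.88 and 6.97 in Dox, against 7.05, 6.77 and 6.64 in No dox, with No dox 2 above 3 of the Dox arrays. Here the log2 fold change was 0.18 (95% interval −0.066 to 0.43; limma adjusted p = 0.701).

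ATF4 itself, the factor at the centre of the response, is regulated largely through translation of its message, which arrays do not measure. On the probe that stands for the gene (ILMN_1672128) ATF4 had log2 signals of 10.94, 11.05, 11.12 and 10.97 in Dox, against 11.03, 11.24 and 11.01 in No dox. The groups overlapped, and No dox 3 was the highest of the 7 arrays. The log2 fold change was −0.072 (95% interval −0.26 to 0.11; limma adjusted p = 0.854). A second ATF4 probe (ILMN_2358457) had 6.46, 6.49, 6.59 and 6.48 in Dox and 6.48, 6.64 and 6.59 in No dox, a log2 fold change of −0.063 (limma adjusted p = 0.849). The last ATF4 probe (ILMN_1783394) had 4.56, 4.29, 4.43 and 4.44 in Dox and 4.45, 4.36 and 4.80 in No dox. It was detected on 1 No dox array and on 0 Dox arrays, so no fold is given for it.

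The other regulators with a probe showed small differences. CEBPB, a C/EBP partner of ATF4, had a log2 fold change of 0.085 (limma adjusted p = 0.761), and its Dox arrays lay above its No dox arrays by 0.014 at the nearest. ATF5, a relative of ATF4 that is also controlled through translation, had 0.042, and CEBPG, the partner with which ATF4 binds many of its elements, had −0.0079. SESN2, which restrains mTORC1 under leucine shortage, had 0.0064, and JDP2, a bZIP repressor, had −0.071. SESN2 and JDP2 were each detected on 2 Dox and 2 No dox arrays only, and the 95% interval of JDP2 ran from −0.45 to 0.31.

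**Figure D2:**
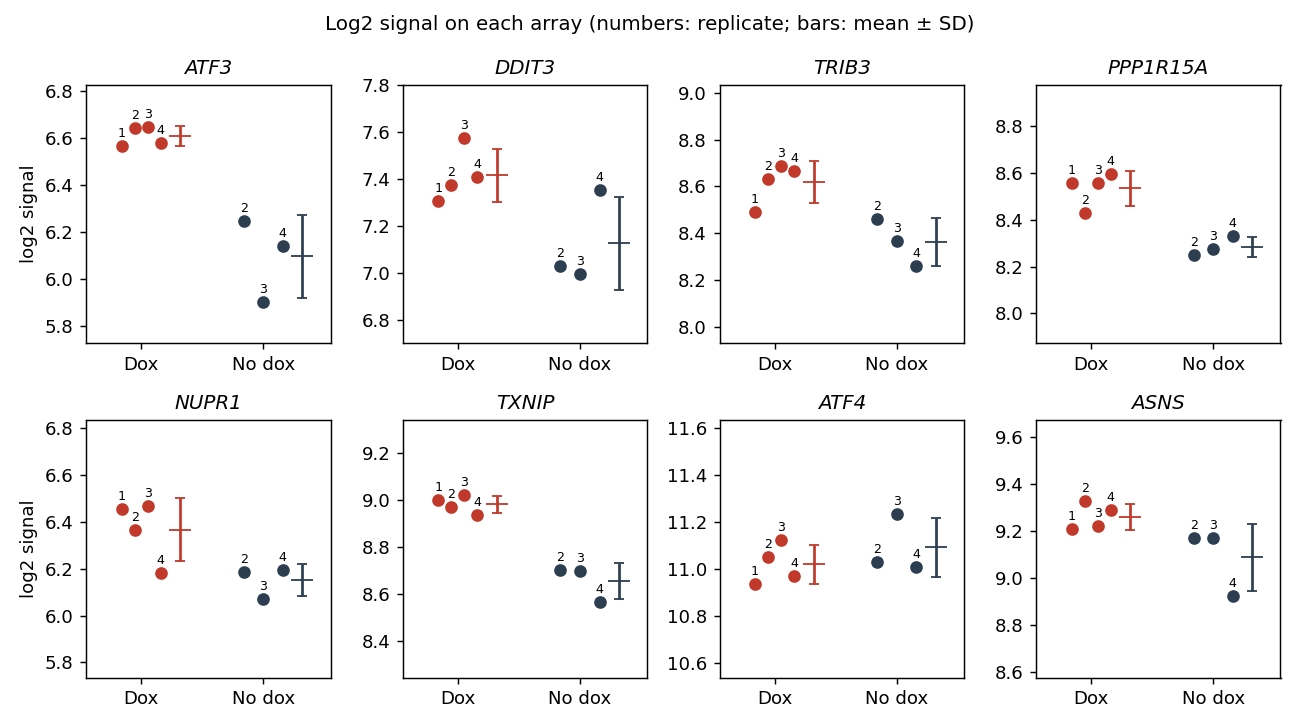
Log2 signal (vertical axes, background-corrected and quantile-normalized) of 8 probes on each of the 4 Dox and 3 No dox arrays. Numbers give the replicate and bars the mean and SD, and each panel covers its own range of the same height. The groups lie apart for ATF3, TRIB3, PPP1R15A, TXNIP and ASNS, whereas arrays of DDIT3, NUPR1 (ILMN_1810560) and ATF4 overlap.

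Among the secreted and other targets, TXNIP, which binds thioredoxin and lowers glucose uptake, differed most. TXNIP had log2 signals of 9.0, 8.97, 9.02 and 8.94 in Dox, against 8.70, 8.70 and 8.56 in No dox. Each Dox array lay above each No dox array, with a gap of 0.24 at the nearest. TXNIP had a log2 fold change of 0.33 (95% interval 0.17 to 0.48), which is 1.26-fold, with a limma adjusted p of 0.236. On the authors' values TXNIP rose by 0.29 on the log2 scale (limma adjusted p = 0.00600).

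STC2, a secreted glycoprotein induced by ATF4 and shown array by array after its values were seen, had log2 signals of 9.26, 9.29, 9.30 and 9.04 in Dox, against 9.06, 9.04 and 9.12 in No dox. The first 3 Dox arrays lay above every No dox array while Dox 4 lay level with the lowest of them, and the log2 fold change of 0.15 had a limma adjusted p of 0.664. VLDLR, a lipoprotein receptor, was detected on 3 Dox arrays and on 0 No dox arrays. Its fold is therefore given against the lowest detected signal of each No dox array, and the Dox mean of VLDLR was 1.01-fold higher than that. This Dox mean includes the Dox array on which VLDLR was not detected. The fitted difference, which is no measured fold, had a limma adjusted p of 0.693. EIF4EBP1, an inhibitor of cap-dependent translation, had a log2 fold change of 0.060 (limma adjusted p = 0.912).

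In amino acid synthesis, 0 of the 10 genes with a probe had an unadjusted p under 0.05 with background correction by neqc and all arrays, and log2 fold changes ran from −0.097 (MTHFD2) to 0.17 (ASNS). ASNS, asparagine synthetase and a classical ATF4 target, was read by 2 probes. On the one that stands for the gene (ILMN_1796417) ASNS had 9.21, 9.33, 9.22 and 9.29 in Dox, against 9.17, 9.17 and 8.92 in No dox. The groups lay apart by 0.038, and the log2 fold change was 0.17 (95% interval −0.012 to 0.36; limma adjusted p = 0.611). This ASNS probe passed an unadjusted p of 0.05 under 8 of 17 alternatives, among them the authors' values, and its log2 fold change was 0.091 without No dox 4. On the other probe (ILMN_2398107) ASNS had 7.63, 7.74, 7.76 and 7.61 in Dox, against 7.75, 7.94 and 7.68 in No dox, with the groups overlapping and a log2 fold change of −0.11 (limma adjusted p = 0.763). Both ASNS intervals reach 0, and the probes lie on opposite sides of it.

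The serine and one-carbon enzymes, which ATF4 activates together, stayed within 0.10 of 0 on the log2 scale. PHGDH, the first enzyme of serine synthesis, had a log2 fold change of 0.034, PSAT1, the aminotransferase that follows it, had 0.011, and PSPH, the phosphatase of the last step, had −0.044 and −0.0054 on its 2 probes. The mitochondrial enzymes SHMT2 and MTHFD2 had −0.057 and −0.097. Of the proline enzymes, PYCR1 had 0.067 and ALDH18A1 had 0.044. CBS, which starts transsulfuration, had −0.045, and CTH, which completes it to cysteine, had 0.068 on the probe that stands for the gene. Another CTH probe (ILMN_2305116), detected on 3 Dox and 3 No dox arrays, had −0.11. The last CTH probe (ILMN_1777060) was detected on 2 Dox and 0 No dox arrays, so no fold is given for it. Near-identical copies of CBS and PSPH are annotated elsewhere in the genome assembly, so their signals may be uncertain as to source.

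In amino acid transport, 0 of 7 genes had an unadjusted p under 0.05 with all arrays, and log2 fold changes ran from −0.044 (SLC7A1, the arginine and lysine carrier) to 0.22 (SLC7A11). SLC7A11, the cystine carrier of system xc-, had log2 signals of 5.37, 5.81, 5.51 and 5.83 in Dox, against 5.37, 5.44 and 5.43 in No dox. Dox 2, 3 and 4 lay above all No dox arrays, and Dox 1 lay level with the lowest of them. SLC7A11 had a log2 fold change of 0.22 (95% interval −0.040 to 0.47; limma adjusted p = 0.652). Without Dox 1 it was 0.31 and passed an unadjusted p of 0.05, though not the adjusted threshold (limma adjusted p = 0.526). SLC3A2, the heavy chain that SLC7A11 and SLC7A5 share, had 0.075 on the probe that stands for the gene (ILMN_1726456), where the groups were apart by 0.022, and −0.056 on the other. SLC7A5, the leucine carrier, had −0.021, SLC1A5, the glutamine carrier, had −0.043, SLC38A2, a carrier of small neutral amino acids, had 0.042, and SLC6A9, a glycine carrier, had 0.026. Limma adjusted p-values of these carriers were 0.792 or higher.

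In tRNA charging, where aminoacyl-tRNA synthetases load amino acids onto their tRNAs, 2 of 7 genes lay above 0 and 5 below, and 0 had an unadjusted p under 0.05. MARS1, the methionine enzyme, had the smallest p of the branch, with log2 signals of 9.65, 9.58, 9.64 and 9.51 in Dox, against 9.72, 9.78 and 9.66 in No dox. All Dox arrays lay below all No dox arrays, though by 0.012 at the nearest. MARS1 had a log2 fold change of −0.13 (95% interval −0.28 to 0.034; limma adjusted p = 0.677). GARS1 (glycine) had −0.11, NARS1 (asparagine) had −0.098, AARS1 (alanine) had −0.027 and EPRS1 (glutamate and proline) had −0.0011. SARS1 (serine) had 0.038, and WARS1 (tryptophan) had 0.050 and 0.037 on its 2 probes.

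Together, the 24 genes of amino acid synthesis, transport and tRNA charging had 12 log2 fold changes above 0 and 12 below, within −0.13 to 0.22 and with a median of 0.0050, where the median over all genes was 0.0051. The 3 branch medians of these genes changed sign when single arrays were left out. The median of amino acid synthesis was −0.0067 without Dox 3, −0.016 without No dox 4 and 0.079 without No dox 2, that of transport was −0.023 without Dox 3 and −0.016 without No dox 4, and that of tRNA charging was 0.015 without No dox 2. Of the 10 genes with the ATF4 core in their promoter window, 7 had a probe, of which 3 lay above 0 and 4 below, and ATF3 was the 1 with an unadjusted p under 0.05. Of the 26 genes with a probe and a promoter window without the core, 4 had an unadjusted p under 0.05. Over all genes, 5.01% were higher and 3.46% lower at that level. Whether the core goes with a difference was not tested.

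To show each array by itself, the signal of every gene was set relative to its No dox mean and averaged over a branch. The regulators averaged 0.12, 0.11, 0.13 and 0.17 in Dox, against 0.019, −0.058 and 0.039 in No dox. Secreted and other targets averaged 0.14, 0.20, 0.28 and 0.079 in Dox, against 0.012, 0.020 and −0.032 in No dox. In these 2 branches each Dox array was above each No dox array, and Dox 4 was the highest Dox array for regulators but the lowest for secreted and other targets. The average of secreted and other targets rests on 4 genes and includes VLDLR, which was not detected in No dox. That of regulators includes ATF3, whose log2 fold change of 0.51 was the largest of all members. It also includes SESN2 and JDP2, each detected on 2 Dox and 2 No dox arrays only. The Dox mean of regulators was 0.13, above their median log2 fold change of 0.085. How often averages over other sets of genes separate in this way was not examined.

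Amino acid synthesis averaged −0.046, 0.019, 0.056 and 0.033 in Dox, against 0.070, −0.0025 and −0.068 in No dox. Transport averaged −0.050, 0.064, 0.083 and 0.047 in Dox, against 0.0090, −0.0011 and −0.0079 in No dox. For tRNA charging the averages were −0.037, −0.058, −0.010 and −0.051 in Dox, against 0.060, −0.027 and −0.033 in No dox. The groups overlapped in all 3 branches. Dox 1 was the lowest Dox array in amino acid synthesis and in transport, and No dox 2 was the highest No dox array in all 3.

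**Figure D3:**
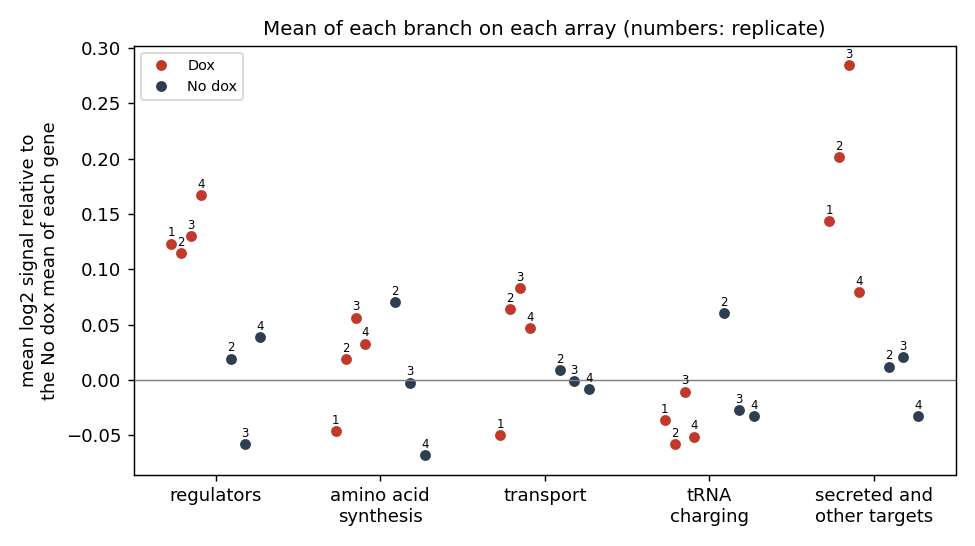
Mean log2 signal of each branch on each array, relative to the No dox mean of every gene (vertical axis), for the 4 Dox and 3 No dox arrays, with replicate numbers. Dox lies above No dox on every array for regulators (0.11 to 0.17 in Dox) and for secreted and other targets (0.079 to 0.28 in Dox), and the groups overlap in the other branches. VLDLR, not detected in No dox, is included in secreted and other targets. SESN2 and JDP2, not detected on every array, are included in regulators.

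Upstream of the members, 21 genes of the eIF2 kinases and the eIF2 machinery had a probe, and 0 had an unadjusted p under 0.05 in either direction. Their median log2 fold change was −0.023, with 7 above 0 and 14 below. The smallest p-values belonged to EIF2B3, a subunit of the exchange factor that reloads eIF2 (log2 fold change −0.14, adjusted p = 0.627), DNAJC3, a co-chaperone that restrains the kinase PERK (−0.22, adjusted p = 0.633), IMPACT, an inhibitor of the kinase GCN2 (−0.25, adjusted p = 0.651), and EIF2AK1, the heme-regulated kinase (0.11, adjusted p = 0.724), all from limma. IMPACT was detected on 3 Dox and 3 No dox arrays, and its log2 fold change was −0.081 on the authors' values. The cytosolic tRNA synthetases outside the set (11 of 12 with a probe) had a median of −0.025, with 4 above 0 and 7 below, and 0 had an unadjusted p under 0.05.

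Of 12 other ATF4 and CHOP targets, 10 had a probe, and 1 of the 10 was called, higher in Dox, where 0.202% of all genes were called higher. On the authors' values 2 of the 10 were called higher, GDF15 and CCPG1, where 0.544% of all genes were. This list was chosen with earlier results of these data known, and the paper had already reported GDF15 as higher in Dox. These counts are therefore a description and no independent evidence. GDF15, a secreted stress factor of the TGF-β family, had log2 signals of 10.17, 9.88, 9.94 and 10.04 in Dox, against 9.25, 9.22 and 9.27 in No dox. The groups lay apart by 0.62, further than for any member of the set. GDF15 rose by 0.76 on the log2 scale (95% interval 0.58 to 0.95; limma adjusted p = 0.00590). Without No dox 3 its adjusted p was 0.0508.

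CCPG1, a receptor for autophagy of the endoplasmic reticulum, was read by 2 probes. On ILMN_1794190 CCPG1 had 7.88, 7.78, 7.85 and 7.84 in Dox, against 7.53, 7.55 and 7.60 in No dox, with all Dox arrays above (log2 fold change 0.28, limma adjusted p = 0.282, and 0.0399 on the authors' values). The other CCPG1 probe (ILMN_2409290) was detected on 1 Dox and 2 No dox arrays and had a log2 fold change of −0.051. BBC3, which encodes the death effector PUMA, had 0.23 (adjusted p = 0.591), and DDIT4, an inhibitor of mTORC1, had 0.16 (adjusted p = 0.647). The median of the 10 genes was 0.13, with 8 above 0 and 2 below. GADD45A, a growth-arrest gene named here after its values were seen, had −0.28 on one probe (ILMN_1694075, adjusted p = 0.410) and 0.013 on the other (ILMN_2052208), so that its probes disagree.

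The 2 sets of values, with background correction and as the authors deposited them, were fitted in the same way. ATF3 had a log2 fold change of 0.51 with background correction and 0.28 on the authors' values. In the same order, SLC7A11 had 0.22 and 0.092, NUPR1 (ILMN_1810560) had 0.22 and 0.12, and DDIT3 had 0.29 and 0.20. TRIB3 was at 0.26 and 0.22, PPP1R15A at 0.25 and 0.21, TXNIP at 0.33 and 0.29, and MARS1 at −0.13 and −0.12. The branch medians on the authors' values were 0.081 for regulators, 0.021 for amino acid synthesis, 0.013 for transport, −0.026 for tRNA charging and 0.095 for secreted and other targets. The adjusted p-values of PPP1R15A (0.0616), TRIB3 (0.0919) and DDIT3 (0.201) stayed above 0.05 on those values too.

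**Figure D4:**
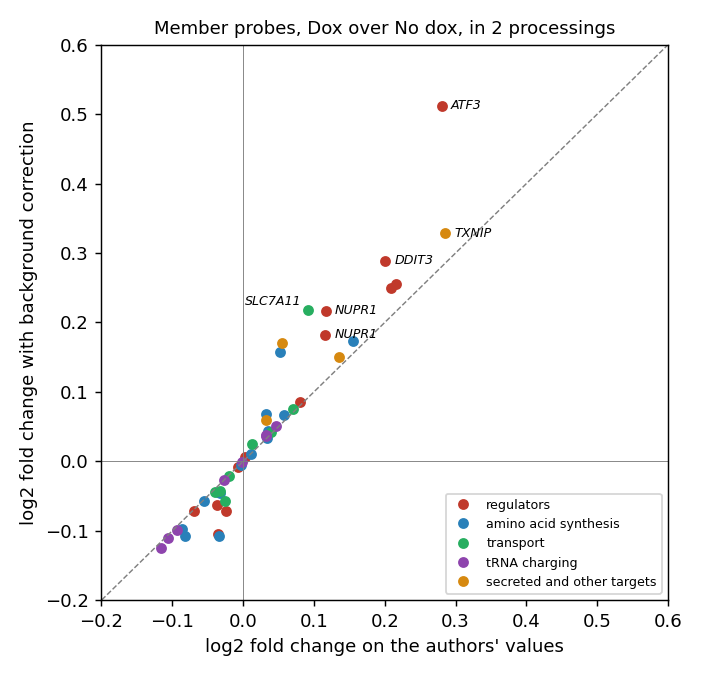
Log2 fold change, Dox over No dox, of the 48 member probes on the authors' values (horizontal axis) and with background correction (vertical axis), colored by branch, with the dashed line at equality. Fitted values of 3 probes not detected in one group are included. ATF3 lies farthest from the line, at 0.28 on the horizontal and 0.51 on the vertical axis, and most probes lie near it.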

How the data were processed

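Expression was measured on 7 Illumina HumanHT-12 v4 arrays of PC3 TRIPZ-MITFA cells, 4 Dox and 3 No dox, grouped by the submitters' sample titles. The authors deposited 2 tables. The scanner table holds the signal intensity of 47323 probes, each with its detection p-value, and the other holds log2 values of 19337 probes, made by the authors with lumi (background correction, log2 and quantile normalization). The deposited log2 values differed by at most 0.0462 from quantile-normalized log2 signals without further background correction, and each column had a median of 7.16. A fold change on those values can therefore be smaller than one with background correction where background is a large share of the signal.

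From the intensities, limma 3.58.1 (R 4.3.3) computed background-corrected, quantile-normalized log2 signals through its neqc function. The offset was 16, and the noise was estimated through the detection p-values in place of control probes. Probes detected (p under 0.01) on 1 array or more, 19337 in all, were fitted with lmFit and eBayes (2 group means), and p-values were adjusted by Benjamini-Hochberg over all of them at a threshold of 0.05. neqc stands in for lumi. The fit and its calls were tried on values simulated with independent noise, which does not test the background correction or the normalization. The same test was run on the authors' values. Arrays give no read depth, and their number limits the precision.

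Probes were named through the platform annotation (15060 tested probes with 1 gene name, 2 with several, 4275 with none), and symbols were brought up to date by gene identifier in RefSeq (GRCh38.p14). Where a gene had several tested probes, that of highest mean signal stood for it in lists. Members, lists and alternatives were chosen with earlier results of these data known, so lists are described by counts and medians and given no test. Values on every array are given for members with an unadjusted p under 0.05 or a call on the authors' values, for the member of smallest p in each other branch, and for ATF4, DDIT3, TRIB3 and ASNS. STC2 was added after its values were seen. From each wider list at most 4 genes of smallest p are named, and GADD45A was added after its values were seen. Alternatives changed the background correction, the normalization, the probe filter and the variance model, weighted the arrays, blocked on the replicate number, or left out 1 array at a time. Chip identifiers were not used here, and chips were not tested as batches. Some markers that were examined are not reported here.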

Additional observations from a re-analysis of the deposited data

Results flagged for a closer look

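In 3 of the 60 probes examined, 1 of the 4 Dox arrays stood apart from the other 3, as judged by its gap to the nearest over the range of the group (chance alone marks about 5% of groups). All 3 concern Dox 4. For STC2, the secreted glycoprotein, Dox 4 lay at 9.04 on the log2 scale and the others between 9.26 and 9.30, a ratio of 0.847. For CTH, the enzyme that makes cysteine from cystathionine, Dox 4 was the highest on one probe (ILMN_2305112, 5.98 against 5.84 to 5.86, ratio 0.875) and the lowest on another (ILMN_2305116, 4.70 against 4.87 to 4.90, ratio 0.854), so Dox 4 lay at opposite ends of the Dox group on these CTH probes. CTH probe ILMN_2305116 was detected on 3 of the 4 Dox arrays only, so its signal lay near the limit of detection. Without Dox 4 the median log2 fold change of secreted and other targets was 0.211, against 0.160 with all arrays.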

How the results depend on the processing

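The count of member probes called higher, 0 with background correction by neqc, was 2 (ATF3 and TXNIP) without background correction, 2 with normexp fitted without negative controls, 2 on the authors' values and 2 with an intensity trend, and 1 (ATF3) when only probes detected on every array of a group were tested. It was 0 under each other alternative (0 to 0 with single arrays left out), and the count called lower was 0 under every alternative. At an unadjusted p under 0.05, between 4 (without Dox 3) and 8 member probes were higher, and DDIT3 passed this level under 14 of 17 alternatives (not without Dox 3, No dox 2 or No dox 3), ASNS under 8 and SLC7A11 under 3. At this level 1 probe (MARS1) was lower without background correction, 1 on the authors' values and 1 with an intensity trend. The regulators' median log2 fold change was 0.18 when only probes detected on every array of a group were kept, which leaves fewer genes. With single arrays left out, the median of all members ran from 0.0045 (without Dox 3) to 0.057, that of amino acid synthesis from −0.016 to 0.079, that of transport from −0.023 to 0.062, and that of tRNA charging from −0.10 to 0.015.

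With the replicate number as a block on the 6 arrays of replicates 2 to 4, 0 member probes were called in either direction, also 0 on these arrays with no block, and the median of all members was 0.047 in both. The median of regulators was 0.098, of amino acid synthesis 0.037, of transport 0.062, of tRNA charging −0.015 and of secreted and other targets 0.16. Same-numbered arrays did not deviate together (correlations −0.035, 0.0090 and −0.021, with 0 of 6 arrays closest to their own number). No shared deviation by number was thus visible, but so few arrays cannot tell whether the samples were paired. Of 441 comparisons of 26 named probes, 428 kept their side of the threshold, 11 gained a call (ATF3 in 5, TXNIP in 4 and CCPG1 in 2), 2 lost one (GDF15, adjusted p = 0.111 with the block and 0.0508 without No dox 3) and 0 reversed a called direction, while 2 changed sign without a call, both on ATF4 probes. The adjusted p of ATF3 ran from 0.00247 to 0.550 over the 17 alternatives, and that of TXNIP from 0.00593 to 0.638. The cause of these shifts was not tested. The number of arrays limits the precision, and 6 of the 48 member probes were not detected on all arrays.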
